A study of Taeniopygia guttata with 23 samples.

Results

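H3K27me3 regions shorter than 20 kb that carried no other profiled mark at day 67 were described in the auditory forebrain of male zebra finches (Taeniopygia guttata). Islands, which are stretches of the genome called as enriched in a library, were merged over the 4 day 67 H3K27me3 libraries wherever they overlapped or touched. A merged region was kept when it was shorter than 20 kb, held an island of all 4 libraries, and was touched by no island of H3K4me3, H3K9me3 or Pol II in any day 67 library. This left 3497 H3K27me3-only regions, which were 11.4% of the 30711 merged regions, 24.6% of the 14211 called in all 4 libraries and 27.3% of the 12827 of those under 20 kb. The H3K27me3 islands of day 67 and the absence of the other marks at day 67 were thus what the regions were selected on, and are given as a description with no test.

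Isolate males lived with 2 adult females from day 21, without an adult male. Tutored males lived with 1 adult male and 1 adult female from day 21. The labels place both groups at day 67, while the series' design text says day 65. P32 males stayed in their home flight aviaries and were taken at day 32. Each of H3K27me3, H3K4me3, H3K9me3 and Pol II was profiled by chromatin immunoprecipitation and sequencing in 2 Isolate, 2 Tutored and 1 P32 library. No strain, genotype or drug is named, all birds were male, and the tissue was dissected whole, so a mark in a fraction of the cells and a weaker mark in every cell cannot be told apart.

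H3K27me3 is the methyl mark placed on histone H3 by the Polycomb repressive complex PRC2, whose catalytic subunit is EZH2 or EZH1. It is known for keeping developmental genes silent in cells that do not use them, and it can spread from a nucleation site into broad domains. H3K4me3 marks promoters, Pol II marks transcription, and H3K9me3 marks another form of silent chromatin that is rich in repeats in many animals. Polycomb sites at promoters often carry H3K4me3 as well, a combination called bivalent. The regions described here held no H3K4me3 island at day 67, and no H3K9me3 or Pol II island either.

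The H3K27me3 lists held 23375 and 29322 islands in Isolate replicates 1 and 2, 24321 and 31185 in Tutored replicates 1 and 2, and 21621 in P32. Reads in those islands numbered 5671633 and 8412117 in Isolate, 6434132 and 8300409 in Tutored, and 6161227 in P32. The replicate 1 lists had fewer, longer islands (median 4600 bp in both groups) than the replicate 2 lists (2600 bp in Isolate and 2400 bp in Tutored), so island length differed more by replicate number than by group. Reads outside islands were not in the files, which leaves the level of an uncalled region unknown rather than 0. No source says whether replicates were separate birds, and p-values measure the spread between these libraries, which may be technical.

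The regions were short. Their median length was 5.0 kb, with 10% under 2.2 kb and 10% over 10.6 kb, against a median of 7.6 kb in the 9330 other regions under 20 kb, which carried another mark. Together they covered 20.13 Mb. Among the other short regions, 7681 carried H3K9me3, 2592 carried H3K4me3 and 2227 carried Pol II, and 5906 had H3K9me3 alone. The share of all regions of the 4 libraries that carried H3K27me3 only was 51.4% under 2 kb, 46.1% from 2 to 4 kb, 29.2% from 4 to 8 kb, 20.3% from 8 to 12 kb and 9.48% from 12 to 20 kb. A longer region has more room for an island of another mark, and the rule asks for none, so this decline is in part set by the rule.

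Levels overlapped on both sides of the length limit. The longest H3K27me3-only region spanned 19.8 kb of chromosome 1 at 102977201 to 102997000, with a level of 3.61 and 3.21 CPM per kb in Isolate and 3.24 and 5.69 CPM per kb in Tutored. CPM is the count scaled to the library's reads inside islands, divided here by the length of the region. The next were 19.2 kb on chromosome 1A at 53450001 to 53469200 and 19.0 kb on chromosome 12 at 10729801 to 10748800, at means of 6.32 ± 0.401 and 2.57 ± 0.894 CPM per kb (SD, n = 4 day 67 libraries). Just over the limit, the shortest regions that met the rest of the rule were 20.2 kb on chromosome 8 at 25346201 to 25366400, 20.4 kb on chromosome 23 at 1807001 to 1827400 and 20.6 kb on chromosome 3 at 74898001 to 74918600, at means of 4.78 ± 0.663, 4.94 ± 1.29 and 2.80 ± 1.40 CPM per kb. The means inside the limit ran from 2.57 to 6.32 and those outside it from 2.80 to 4.94 CPM per kb. Only 24 of the 1384 regions of 20 kb or longer carried no other mark.

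The level of H3K27me3 over the 3497 regions was close to that of short regions with another mark and below that of the longer ones. The median H3K27me3-only region had 5.06 and 4.69 CPM per kb in Isolate and 4.87 and 4.77 CPM per kb in Tutored. The ranges of the groups overlapped, and the mean of the 4 medians was 4.85 ± 0.159 CPM per kb (SD, n = 4). The same mean was 5.19 ± 0.106 in the other short regions, 4.67 ± 0.309 in those with H3K9me3 alone, 6.35 ± 0.591 in those with H3K4me3, and 6.25 ± 0.138 in regions of 20 kb or longer. No test was made between these classes, since the regions of a library are not replicates.

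**Figure D1:**
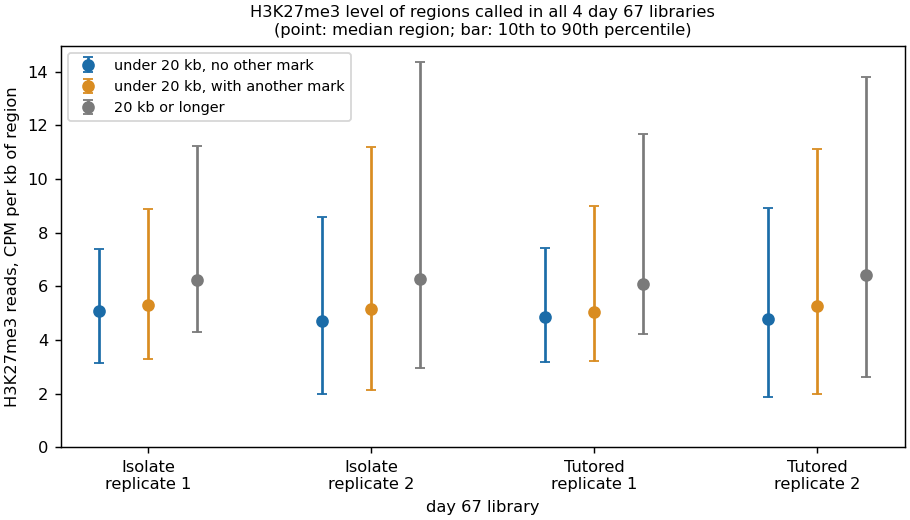
H3K27me3 level (CPM per kb of region, vertical axis) in each day 67 library for regions called in all 4 libraries, by class of region. Points are medians over regions and bars run from the 10th to the 90th percentile. The H3K27me3-only regions have medians of 4.69 to 5.06 CPM per kb, and their 90th percentiles lie below those of the other classes in every library.

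Shorter regions were denser. Under 2 kb the median level was 7.43 and 8.36 CPM per kb in Isolate and 7.53 and 9.00 CPM per kb in Tutored, while from 12 to 20 kb it was 4.56 and 3.60 in Isolate and 4.44 and 3.75 in Tutored. All 4 libraries showed the higher level in the shortest class. Each region had to be called in every library, and none of the 3497 held fewer than 27 reads in any. The same few reads give a higher level per kb in a shorter region, so faint short regions are left out. Longer regions are also divided by bases that a library's islands did not cover. The rise is thus in part set by the rule, and its size apart from the rule was not tested. The short regions with another mark were likewise denser in the shortest class in all 4 libraries. They had 8.11 and 10.7 CPM per kb in Isolate and 7.95 and 10.5 in Tutored under 2 kb. From 12 to 20 kb they had 5.41 and 5.03 in Isolate and 5.23 and 5.15 in Tutored.

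Dense H3K27me3-only regions were few. Averaged over the 4 day 67 libraries, the level ran from 1.43 to 19.7 CPM per kb with a median of 4.75, and 112 regions (3.20%) were above 10 CPM per kb. That share was 9.75% in the other short regions, those with H3K4me3 included, and 18.0% in those of 20 kb or longer. It was not counted for short regions with H3K9me3 alone. By library, the 90th percentile of their day 67 level ran from 7.84 to 9.29 CPM per kb. This was only a little above the 7.37 to 8.93 CPM per kb of the H3K27me3-only regions. For short regions with H3K4me3 the same percentile ran from 10.7 to 14.9 CPM per kb. The median length of the 112 dense regions was 1.8 kb, and 110 of them also had an H3K27me3 island in P32.

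The densest regions are small sites that every library marked heavily. Chromosome 9 at 26837001 to 26838200, 1.2 kb long, had 18.8 and 22.8 CPM per kb in Isolate and 17.0 and 20.2 in Tutored, from 128 and 230 reads in Isolate and 131 and 201 reads in Tutored. Chromosome 23 held the second at 3252601 to 3253200, a 0.6 kb site with 17.0 and 22.2 CPM per kb in Isolate, 16.3 and 17.7 in Tutored, and 26.5 in P32. In both sites the Isolate and Tutored ranges overlapped. Chromosome 20 at 6849401 to 6851000 had 13.6 and 21.4 CPM per kb in Isolate, 15.2 and 22.4 in Tutored, and 18.8 in P32. Chromosome 23 at 1712401 to 1716600, at 4.2 kb the longest of the 5, had 13.8 and 19.7 in Isolate, 15.7 and 20.1 in Tutored, and 17.2 in P32, and each library's island spanned all of it. Chromosome 3 at 5316401 to 5317800 had 15.5 and 17.2 in Isolate, 15.7 and 20.1 in Tutored, and 20.98 in P32. In the last 3 sites, too, the day 67 groups overlapped, and replicate 2 was above replicate 1 in both groups at all 5. Every one of the 5 carried a P32 H3K9me3 island, which covered 0.8, 0.4, 1.4, 4.2 and 1.2 kb of them in the order given. The sites on chromosomes 20 and 3 also held a P32 H3K4me3 island, over 0.8 and 1.0 kb, with 60 and 27 reads.

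Most regions were a single island in each library, but the libraries agreed on only part of their extent. A single island was found in 92.3% and 82.3% of the regions in Isolate replicates 1 and 2, and in 92.3% and 80.7% in Tutored replicates 1 and 2. The islands covered a median of 87.2% and 75% of the region in Isolate and 90.7% and 73.9% in Tutored, so the replicate 1 libraries covered more in both groups. The part covered by all 4 libraries had a median of 2.2 kb, or 52.9% of the region, against 55.6% in the other short regions and 69.0% in those of 20 kb or longer. In 91 regions no base was shared by all 4. Reads per region had medians of 129 and 168 in Isolate and 147 and 170 in Tutored, and the regions held 8.94% to 9.78% of a library's reads.

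The authors' deposited tables also give a fold over input for each island of the replicate 2 libraries. The median fold of islands in H3K27me3-only regions was 2.29 in Isolate and 2.32 in Tutored, against 2.38 in Isolate and 2.42 in Tutored for islands in the other short regions. Islands in short regions with H3K4me3 had medians of 2.74 in Isolate and 2.68 in Tutored. The deposited input counts came to a median of 13.8 reads per kb in Isolate and 14.0 in Tutored in the H3K27me3-only regions, and 13.9 and 14.2 in the other short regions, so the input reads differed little between these classes. Fold and level share their ChIP reads and are not independent.

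The comparison of Isolate with Tutored asks whether rearing without an adult male went with another level of H3K27me3 at these sites. No region passed the test. edgeR's quasi-likelihood test over all 14211 regions called 0 of the 3497 at an adjusted p of 0.05, against a background of 0% of all regions higher and 0% lower in Isolate. At an unadjusted p of 0.05 it marked 27 regions (0.772%), against a background of 0.697%. Leaving out a library leaves 1 in its group, so only the median log2 fold, Isolate over Tutored, is given for those fits. It was -0.047 or 0.00077 without Isolate replicate 1 or 2, and -0.0087 or -0.017 without Tutored replicate 1 or 2. Over all 14211 regions these medians were 0.0033, -0.011, -0.0055 and 0.016 in the same order. With the replicate number as a block, 0 regions were called and 147 (4.204%) had an unadjusted p under 0.05, against a background of 4.85%, and DESeq2 called 0 regions with 23 (0.658%) at that p, against a background of 0.647%. Asking for an island in all 4 libraries favours regions that do not differ, and 2 libraries against 2 limit what can be found. Counts were scaled within the mark, so a shift of H3K27me3 as a whole between the groups could not be seen.

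The spread between replicates exceeded the difference between groups. The median size of the Isolate over Tutored log2 ratio was 0.22 in replicate 1 and 0.21 in replicate 2, whereas the log2 ratio between replicates of the same group had a median size of 0.38 in Isolate and 0.40 in Tutored. Across the 3497 regions, the Isolate over Tutored log2 ratios of the 2 replicates correlated at r = 0.04, a description over regions that share libraries. The ratio passed 2-fold in both replicates in 5 regions upwards and 6 downwards, and in 12 regions in opposite directions, against 22, 18 and 37 of all 14211 regions. Both Isolate libraries lay above both Tutored libraries in 295 regions (8.44%, against a background of 8.8%), and below them in 381 regions (10.9%, against a background of 7.82%). With the library size taken as the reads in regions of all 4 libraries, these counts were 253 above (7.24%, against 7.52% of all regions) and 426 below (12.2%, against 9.18% of all regions).

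**Figure D2:**
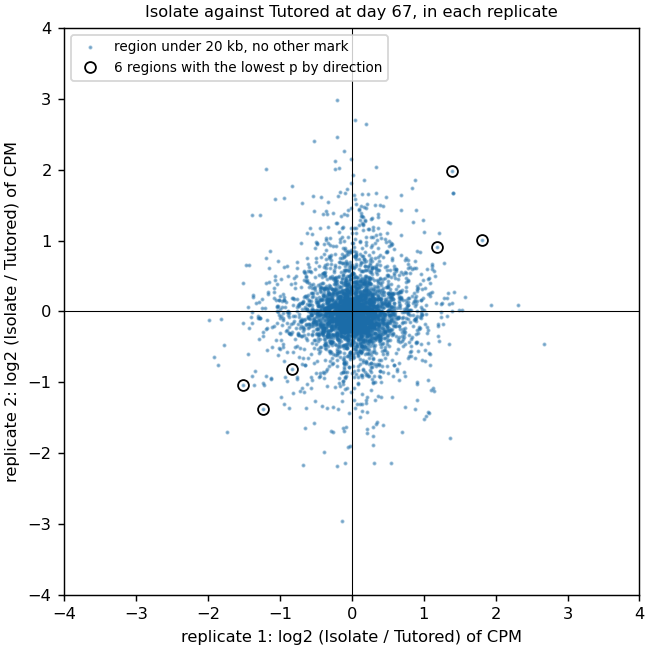
Log2 ratio of Isolate over Tutored CPM in replicate 1 (horizontal axis) and replicate 2 (vertical axis), with 1 point for each of the 3497 H3K27me3-only regions. Rings mark the 6 regions named for their p, 3 in each direction. The cloud forms a cross around 0, and the ratios of the 2 replicates correlate at r = 0.04.

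Among the 6 regions with the lowest p, the differences lay in how much of the region was called. On chromosome 1 at 55328801 to 55333200, the level was 5.81 and 3.48 CPM per kb in Isolate and 1.66 and 1.73 in Tutored, so the groups did not overlap, and islands covered 4.2 and 2.6 kb in Isolate and 1.2 and 1.6 kb in Tutored. The edgeR log2 fold, Isolate over Tutored, was 1.43 ± 0.386 (SE), with an adjusted p of 1.0. P32 had 5.20 CPM per kb there. Chromosome 4A at 14015001 to 14024800 had 4.62 and 4.17 CPM per kb in Isolate and 2.03 and 2.21 in Tutored, over 8.6 and 9.4 kb in Isolate and 5.0 and 4.0 kb in Tutored. P32 had no island in it. Chromosome 1A at 72839001 to 72849200 had 4.75 and 3.38 CPM per kb in Isolate and 1.81 and 0.850 in Tutored, over 10.2 and 9.0 kb in Isolate and 4.2 and 2.0 kb in Tutored. In these regions, too, both Isolate libraries were above both Tutored libraries.

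In the other direction, chromosome 6 at 1796201 to 1804600 had 1.76 and 1.95 CPM per kb in Isolate and 4.14 and 5.09 in Tutored, over 3.2 and 3.0 kb in Isolate and 7.2 and 8.4 kb in Tutored. It lay 1.2 kb from the nearest H3K4me3 island of day 67, and P32 had 4.17 CPM per kb. Chromosome 4A at 18439801 to 18455200 had 2.83 and 3.01 CPM per kb in Isolate and 5.03 and 5.29 in Tutored, over 8.0 and 7.8 kb in Isolate and 15.2 and 13.6 kb in Tutored. Chromosome 5 at 9679601 to 9689800 had 1.18 and 1.66 CPM per kb in Isolate and 3.37 and 3.40 in Tutored, over 2.6 and 2.8 kb in Isolate and 7.6 and 6.0 kb in Tutored. The groups did not overlap in any of these 3 regions, and the adjusted p was 1.0 in all 6. A choice by lowest p favours regions whose groups do not overlap, so the separation in all 6 comes with the choice. With covered length as an offset, the log2 fold of the 6 lay between -0.05 and 0.14 and changed sign on chromosomes 1A, 6, 4A at 18439801 and 5.

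The P32 library took no part in the choice of the regions, and most of them were marked in it. An H3K27me3 island of P32 lay in 2716 of the 3497 regions (77.7%, exact binomial 95% interval 76.2% to 79.0%, for counting error only), against a background of 83.8% of all regions called in the 4 day 67 libraries. The share was 83.9% in the other short regions, 76.5% in short regions with H3K9me3 alone, 97.7% in those with H3K4me3 and 97.98% in regions of 20 kb or longer. All 24 regions of 20 kb or longer without another mark had a P32 island. With a single P32 library there is no replicate behind these shares, and no test was made.

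The gap to the other short regions was present in every class of length. The share was 85.1% against 92.3% under 2 kb, 77.2% against 81.3% from 2 to 4 kb, 75.6% against 79.2% from 4 to 8 kb, 76.1% against 84.3% from 8 to 12 kb, and 88.4% against 91.7% from 12 to 20 kb, the H3K27me3-only regions being first in each pair. The 95% intervals of the pair were separate from 8 to 12 kb and overlapped in the other classes. They hold counting error only, and regions of 1 library are not replicates, so this is no test. From 8 to 12 kb the median day 67 level was 4.64 and 3.53 CPM per kb in Isolate and 4.44 and 3.66 in Tutored in the H3K27me3-only regions. In the other short regions it was 5.065 and 4.695 in Isolate and 4.84 and 4.70 in Tutored. The part of level in the gap was not tested. Short regions with H3K9me3 alone had shares of 87.6%, 73.0%, 71.0%, 76.8% and 86.9% in the same classes, below those of the H3K27me3-only regions in 3 classes and above them under 2 kb and from 8 to 12 kb.

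**Figure D3:**
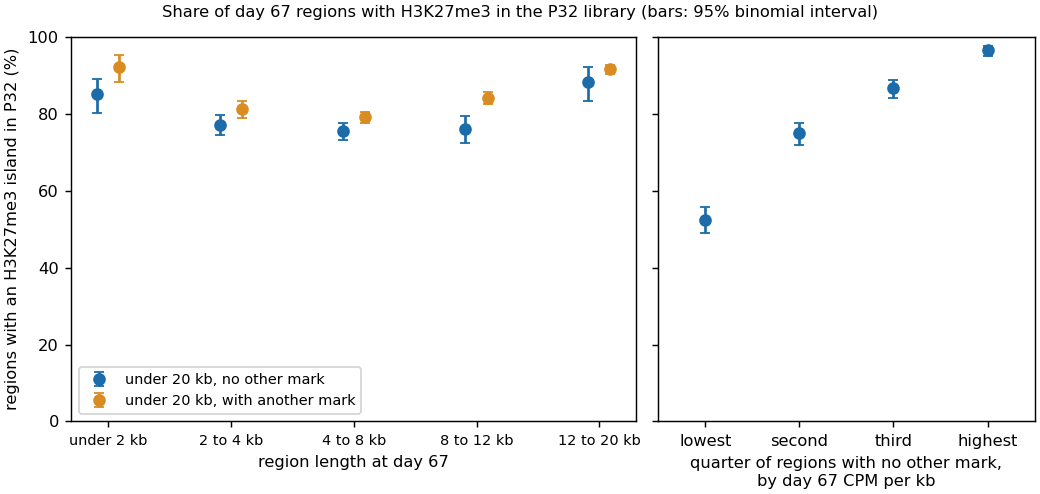
Share of day 67 regions with an H3K27me3 island in the P32 library (percent, vertical axis), by region length for short regions without and with another mark (left), and by day 67 level for the H3K27me3-only regions, in 4 classes of equal size (right). Bars are exact binomial 95% intervals for counting error. The share runs from 52.5% in the class of lowest level to 96.6% in the highest.

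Level at day 67 and chromosome size both went with the presence of the mark at day 32. In 4 classes of equal size by day 67 level, low to high, the share with a P32 island was 52.5%, 74.9%, 86.7% and 96.6%, where the classes meet at 3.67, 4.75 and 6.13 CPM per kb. On the 6 large autosomes of at least 50 Mb it was 65.3%, on the 8 middle ones 81.2%, on the 20 small ones under 20 Mb 93.0%, and on Z 50.8%. The other short regions had 76.6%, 89.8%, 97.96% and 68.8% on the same classes. Within the lowest class of level, the share was still 42.7% on large, 60.1% on middle and 78.8% on small chromosomes, and within the highest it was 92.6%, 95.9% and 99.5%. The part of library depth in these shares was not tested.

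The 781 regions without a P32 island had lower levels at day 67, in the replicate 2 libraries above all. Their median level was 4.63 and 3.05 CPM per kb in Isolate and 4.29 and 2.78 in Tutored. The 2716 regions with a P32 island had 5.24 and 5.25 CPM per kb in Isolate and 5.09 and 5.39 in Tutored. Both sets had a median length of 5.0 kb. The longest without a P32 island was 17.6 kb on chromosome 9 at 2512201 to 2529800, with 1.20 and 0.398 CPM per kb in Isolate and 3.99 and 1.29 in Tutored. Only Tutored replicate 1 covered it whole, with 17.6 kb, while the others covered 1.6 to 3.6 kb. Chromosome 4 at 66778801 to 66795600 had 2.83 and 0.778 CPM per kb in Isolate and 2.77 and 0.344 in Tutored, so replicate 2 was low in both groups. Chromosome 3 at 40255801 to 40272000 had 3.12 and 2.78 CPM per kb in Isolate and 4.05 and 1.95 in Tutored, and its groups overlapped.

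For a comparison of levels between ages, regions were merged again over all 5 H3K27me3 libraries. A P32 island joined 139 of the 3497 regions to a neighbour, and 2577 of the remaining 3358 had a P32 island and could be compared. The background for these ages is all 11659 merged regions with an island in all 5 libraries, joined ones included. The median level of the 2577 was 5.15 and 5.11 CPM per kb in Isolate, 5.02 and 5.25 in Tutored, and 5.02 in P32. The log2 ratio of P32 over the mean of the day 67 groups had a median of -0.03, with 10% below -0.73 and 10% above 0.45. Over all regions of the 5 libraries its median was -0.01. The ratio was more than 2-fold higher in P32 in 16 regions (0.621%, against 1.53% of all regions of the 5 libraries) and more than 2-fold lower in P32 in 138 (5.36%, against 7.40%). CPM is scaled to each library's own reads in H3K27me3 islands. A change of the whole mark between ages could thus not be seen, and a median near 0 is in part set by the scaling.

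No region passed the test between ages. edgeR's quasi-likelihood test, which assumes that the lone P32 library varies like the others, called 0 of the 2577 regions at an adjusted p of 0.05 in either direction, against a background of 0% of 11659 regions. It gave 123 (4.77%) an unadjusted p under 0.05, against a background of 10.1%. With the day 67 replicate number as a block, P32 was set against the average of both replicates and its spread was taken from differences within replicate pairs. In that fit 366 (14.2%) had an unadjusted p under 0.05, against a background of 29.7%, and it called 20 higher in P32 (0.776%, against a background of 5.01%) and 72 lower in P32 (2.79%, against a background of 6%). DESeq2 called 2 higher in P32 (0.0776%, against a background of 0.3%) and 23 lower in P32 (0.893%, against a background of 2.23%). It gave some regions no adjusted p, among them that on chromosome 5 at 58382601, and these shares count such regions as not called. How far this lowers the DESeq2 shares was not tested. At an unadjusted p of 0.05 DESeq2 marked 124 regions (4.81%, against a background of 10.9%). P32 lay above all 4 day 67 libraries in 566 regions (22.0%, against a background of 27.7%) and below all 4 in 632 (24.5%, against a background of 27.4%). Under each of these counts other than the 0 calls of edgeR, the share of H3K27me3-only regions was smaller than that of all regions. With uncalled libraries set to 0 reads the order was the reverse, as given in the last section. The H3K27me3-only regions also held fewer reads, at day 67 medians of 129 to 170 per library against 219 to 297 in the other short regions. Regions joined by a P32 island were left out of them but kept in the background. The part of read count and of joined regions in these shares was not tested.

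The regions with the lowest p had more of their length called at day 67 than in P32, or the reverse. On chromosome 3 at 27909001 to 27921000 the level was 4.53 and 3.89 CPM per kb in Isolate and 3.78 and 3.79 in Tutored, over 8.0 to 10.4 kb, against 0.676 CPM per kb over 1.2 kb in P32. The log2 fold, P32 over day 67, was -2.56 ± 0.361 (SE), with an adjusted p of 0.439 by edgeR and 0.0164 with the replicate block. Chromosome 10 at 14118601 to 14130400 had 4.29 and 3.69 CPM per kb in Isolate and 4.11 and 4.50 in Tutored, against 0.866 in P32, and the log2 fold was -2.25 ± 0.348. Chromosome 4 at 7424001 to 7441400 had 6.17 and 4.29 CPM per kb in Isolate and 6.18 and 4.09 in Tutored, against 0.923 in P32, and the log2 fold was -2.49 ± 0.451. In each of the 3 regions P32 was below all 4 day 67 libraries, which a choice by lowest p favours.

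Where P32 was the higher, its island reached beyond the day 67 region. On chromosome 17, the merged region at 3725601 to 3743600 held a day 67 region at 3738401 to 3743600 and had 0.980 and 1.33 CPM per kb in Isolate and 1.32 and 1.18 in Tutored, over 2.6 to 5.0 kb, against 5.52 CPM per kb over all 18 kb in P32. Its log2 fold was 2.20 ± 0.285, P32 over day 67, with an adjusted p of 0.439 by edgeR and 0.0164 with the replicate block. The day 67 region lay 0.2 kb from an H3K4me3 island and 0.4 kb from a Pol II island of day 67. Chromosome 5 at 58382601 to 58390000 had 2.45 and 2.20 CPM per kb in Isolate and 1.45 and 1.73 in Tutored, against 5.72 in P32. Chromosome 4A at 439601 to 467200 had 2.32 and 2.74 CPM per kb in Isolate and 2.91 and 3.47 in Tutored, against 5.76 in P32. P32 was above all 4 day 67 libraries in these 3 regions, which the choice by lowest p likewise favours. With covered length as an offset, the direction changed in 4 of these 6 regions, namely those on chromosomes 3, 10, 17 and 5.

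At day 32, H3K9me3 was the most frequent of the 3 other marks on these regions, and Pol II was the rarest. Of the 3497 regions, 694 (19.8%, interval 18.5% to 21.2%) held a P32 H3K9me3 island, 49 (1.40%, interval 1.04% to 1.85%) a P32 H3K4me3 island and 6 (0.172%, interval 0.0630% to 0.373%) a P32 Pol II island. The backgrounds over all regions of the 4 day 67 libraries were 48.2% for H3K9me3, 19.9% for H3K4me3 and 3.11% for Pol II. Since the rule removed regions with these marks at day 67, the nearer comparison is with short regions that lacked the mark in question at day 67 but carried another. Those held a P32 island in 60.5% for H3K9me3, 1.97% for H3K4me3 and 0.225% for Pol II. The 60.5% is of regions that carried H3K4me3 or Pol II at day 67. Short regions with H3K9me3 alone at day 67 held a P32 H3K9me3 island in 43.35%, and those with H3K4me3 in 74.6%. In all, 2032 regions (58.1%) had H3K27me3 and none of the other 3 marks in P32 as well.

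H3K9me3 at day 32 lay where H3K27me3 also lay. Of the 694 regions, 674 (97.1%) held a P32 H3K27me3 island too. Put the other way, H3K9me3 was found in 24.8% of the 2716 regions with P32 H3K27me3, against 2.56% of the 781 without. The H3K9me3 islands covered a median of 45.9% of the region, or 2.0 kb, and all of it in 29 regions. The 694 regions were no closer to a day 67 H3K9me3 island than the rest, at a median of 9.8 kb against 8.8 kb.

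Set against the genome, P32 H3K9me3 covered more of the H3K27me3-only regions than of bases without H3K27me3. It covered 8.93% of their bases, 9.74% of the bases in other day 67 H3K27me3 islands that were free of the 3 other marks at day 67, and 0.964% of such unmarked bases outside H3K27me3 islands. On the large autosomes these shares were 4.05%, 4.62% and 0.775%, on the middle ones 8.10%, 10.4% and 0.806%, on the small ones 17.8%, 22.2% and 1.54%, and on Z 6.01%, 6.57% and 2.37%. The order of the 3 kinds of base was thus the same in each class. Pol II was lowest in the H3K27me3-only regions, at 0.0447% of the bases of the H3K27me3-only regions, 0.154% of those in other H3K27me3 islands and 1.66% of those without H3K27me3. The rule drops a whole region that a day 67 island of these marks touches, while the other 2 kinds of base may lie beside such an island. The low Pol II share is thus in part set by the rule, and its size apart from the rule was not tested. These are shares of bases under islands of a single library, with no test.

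**Figure D4:**
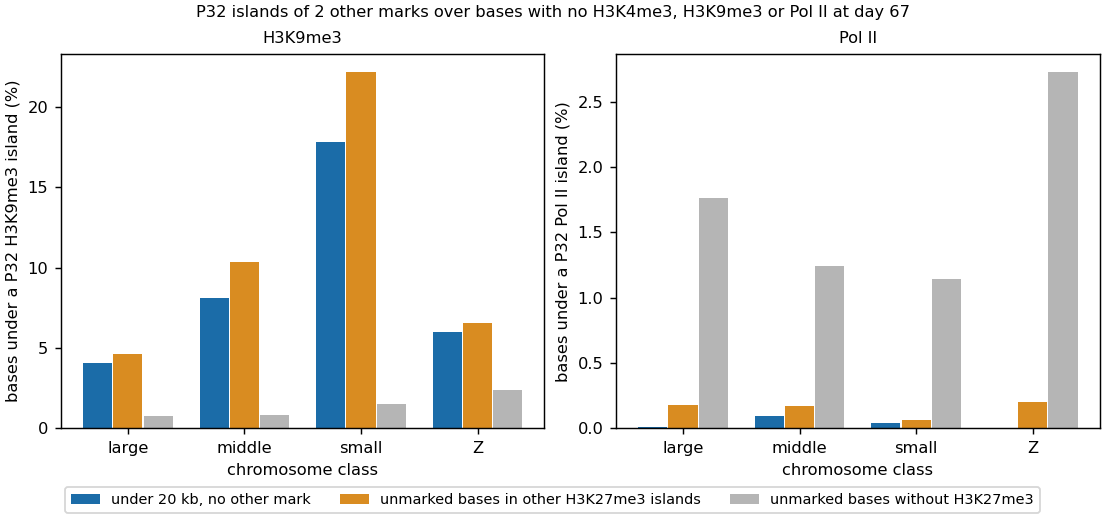
Share of bases under a P32 H3K9me3 island (left) or Pol II island (right), in percent, for bases with none of H3K4me3, H3K9me3 and Pol II at day 67, by chromosome class. H3K9me3 covers 4.05% to 17.8% of the H3K27me3-only regions and 0.775% to 2.37% of bases without H3K27me3. Pol II covers less of the H3K27me3-only regions than of the other bases in each class. That order is in part set by the rule, since only the other bases may lie beside a day 67 island of these marks.

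Denser regions and smaller chromosomes had more H3K9me3 at day 32. A P32 H3K9me3 island lay in 9.49%, 14.0%, 22.0% and 34.0% of the regions in the 4 classes of day 67 H3K27me3 level, low to high. It lay in 11.6% of the regions on large, 19.0% on middle and 33.1% on small autosomes, and in 11.9% on Z. P32 H3K9me3 islands also covered more of the smaller chromosomes as a whole, at 4.32% of large, 7.91% of middle and 16.8% of small autosomes, and 10.8% of Z. H3K9me3 islands of day 67 showed no such rise, covering a mean of 6.68% of large, 6.09% of middle and 6.21% of small autosomes, and 13.6% of Z. The rise thus rests on the single P32 library. Within the highest class of level the shares were 24.4% on large, 28.2% on middle and 44.4% on small autosomes.

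The regions with the most P32 H3K9me3 reads were long ones on small chromosomes. A ranking by reads, not by reads per kb, favours long regions, so their length is in part set by it. Chromosome 24 at 690801 to 708200 had 7.93 and 12 CPM per kb of H3K27me3 in Isolate and 8.65 and 11.2 in Tutored, and P32 H3K9me3 islands with 387 reads covered 16.2 of its 17.4 kb. Chromosome 20 at 7430601 to 7445400 had 8.49 and 14.0 CPM per kb in Isolate, 9.44 and 14.3 in Tutored and 14.2 in P32, with 355 H3K9me3 reads in P32 islands over 13.4 of 14.8 kb. Chromosome 15 at 4936601 to 4954000 had 5.57 and 8.42 CPM per kb in Isolate, 5.90 and 9.60 in Tutored and 10.6 in P32, with 349 H3K9me3 reads over 13.4 of 17.4 kb. Isolate and Tutored overlapped in all 3, with replicate 2 the higher in both groups. Reads of the other marks are those of whole islands that reach into the region.

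The few regions with H3K4me3 in P32 were nearer to a day 67 H3K4me3 island than the rest. The 49 regions with it were a median of 5.8 kb from a day 67 H3K4me3 island, against 24.4 kb for the rest, and a median of 0.6 kb of each was covered. H3K9me3 of P32 was present as well in 41 of the 49. The most reads, 114, were in islands over 1.0 kb of Z at 72385801 to 72388000, a region 0.2 kb from a day 67 H3K4me3 island, with H3K27me3 at 8.01 and 8.38 CPM per kb in Isolate and 4.80 and 8.32 in Tutored. Next were chromosome 2 at 68220001 to 68223800 with 70 reads, 32.6 kb from a day 67 H3K4me3 island, and the dense site on chromosome 20 at 6849401 with 60. The most P32 Pol II reads, 78, were in islands over 2.0 kb of chromosome 15 at 2228601 to 2243000. Chromosome 11 at 1746601 to 1755800 and chromosome 6 at 18691601 to 18695400 had 65 each.

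The regions were more frequent on smaller chromosomes and scarce on Z. They numbered 2.31 per Mb on large, 5.17 on middle and 6.85 on small autosomes, and 0.810 on Z, where 59 were found. The other short regions numbered 7.57, 10.8 and 14.1 per Mb on the same autosomes and 7.44 on Z. H3K27me3-only regions thus made up 23.3%, 32.3% and 32.8% of the short regions on large, middle and small autosomes, and 9.82% on Z. H3K9me3 at day 67 was carried by 82.9% of the short regions on Z, against 66.5% on large, 55.4% on middle and 47.2% on small autosomes. Per Mb of H3K27me3 regions rather than per Mb of chromosome, the excess of small over large autosomes was 1.40-fold in place of 2.97-fold.

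**Figure D5:**
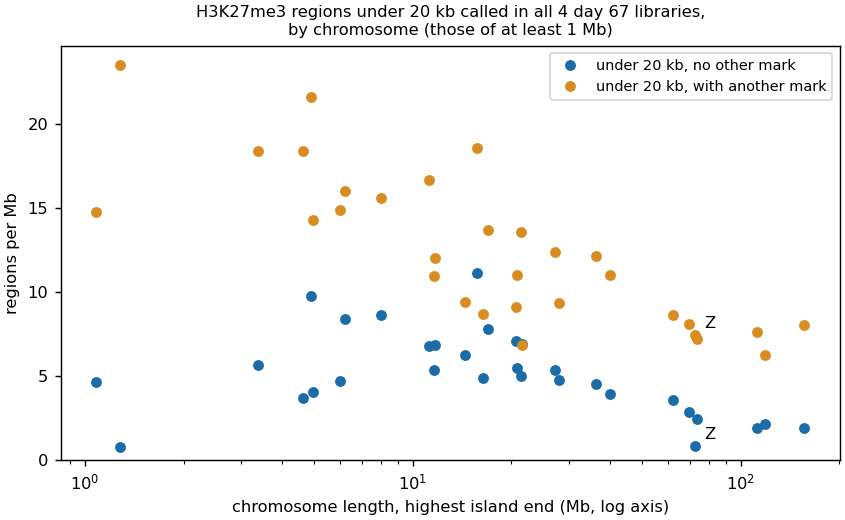
H3K27me3 regions per Mb (vertical axis) against chromosome length (Mb, log axis), for chromosomes of at least 1 Mb, with H3K27me3-only regions and short regions with another mark as separate points. The H3K27me3-only regions reach 11.1 per Mb on chromosome 20 and are at 0.810 per Mb on Z.

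Single chromosomes stood out within their class. Chromosome 20 had 174 H3K27me3-only regions, or 11.1 per Mb, beside 18.6 other short regions per Mb. Chromosome 12 had 6.91 per Mb, close to its 6.86 other short regions per Mb, and was the lowest of the middle autosomes in other short regions. Chromosomes 26 and 24 had 9.78 and 8.62 per Mb. Chromosome 25, at 1.27 Mb, had 1 such region beside 30 other short regions.

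By median distance over all chromosomes, the regions lay nearer to the other marks than short regions that lacked the mark in question did. The median distance was 3.6 kb to another H3K27me3 region of the 4 day 67 libraries, 9.0 kb to an H3K9me3 island, 24.2 kb to an H3K4me3 island and 27 kb to a Pol II island of day 67. The nearest region of 20 kb or longer was at a median of 224 kb. The other short regions were about as near to another H3K27me3 region, at a median of 3.2 kb, and nearer to one of 20 kb or longer, at 146.9 kb. An H3K4me3 island lay within 1 kb of 111 regions (3.17%), an H3K9me3 island within 1 kb of 178 (5.09%) and a Pol II island within 1 kb of 75 (2.15%). Short regions that carried another mark but lacked the mark in question were farther from it, at medians of 39.6 kb to H3K4me3, 18.6 kb to H3K9me3 and 41.0 kb to Pol II. Their shares within 1 kb were 1.69%, 2.85% and 2.14% in that order, so for Pol II this share hardly differed. These distances are pooled over chromosomes. Large autosomes held 39.1% of the H3K27me3-only regions and 48.2% of all other short regions. The part of chromosome class in the distances was not tested.

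Some regions came in runs. When H3K27me3-only regions with gaps under 50 kb were joined, 1934 runs resulted, 1230 regions (35.2%) stood alone, and 109 runs of at least 5 regions held 741 of them (21.2%). The longest run had 18 regions over 348.8 kb of chromosome 20 at 14035601 to 14384400, with levels of 3.88 to 9.77 CPM per kb. All 18 had a P32 H3K27me3 island and 6 had P32 H3K9me3. Among all H3K27me3-only regions of small autosomes, these shares were 93.0% and 33.1%. Chromosome 15 held the next, with 16 regions at 6062801 to 6234200 and 14 regions at 6352601 to 6739400. Of the 16, 13 had P32 H3K27me3 and 0 had P32 H3K9me3, and of the 14, all had P32 H3K27me3 and 2 had P32 H3K9me3. The runs were not unbroken, since their spans also held 8, 2 and 11 other H3K27me3 regions of all 4 libraries, in the order given. Runs of the other short regions were not counted, and the part of regions per Mb in the runs was not tested.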

How the data were processed

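The 20 ChIP libraries of dissected auditory forebrain, fixed in formaldehyde and sonicated per the labels' protocols, entered as deposited island lists, and 3 input samples were not used here. BWA 0.6.1, SICER 1.1 and MACS are named in the submitters' processing notes, which give them no role. From the names of the deposited lists, windows were 200 bp wide, the FDR was 1E-5, and the gap was 600 bp, or 200 bp in the case of H3K4me3. Coordinates are 1-based on an unnamed build (not given in the sources used here), and no region was assigned to a gene. The authors deposited whole-number read counts for each island. The 6 replicate 2 lists of the 3 marks other than H3K4me3 also hold, as deposited by the authors, input counts, a p-value, a fold over input (a ratio) and an FDR q-value for each island, of which the fold and input counts were used as a description. All deposited names carry a tag, uniqnorm, that no label explains. If the libraries were scaled down to an equal depth before calling, the counts and CPM are of reduced libraries. Total sequencing depth is unknown, and reads in H3K27me3 islands ranged from 5671633 to 8412117.

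A mark was counted in a region at an overlap of 1 bp. The test of reads per region was edgeR's (version 4.0.16, R 4.3.3) robust quasi-likelihood F-test with TMM factors, and a call was an adjusted p of 0.05 (Benjamini-Hochberg over all regions of the mark). Isolate was set against Tutored in regions called in all 4 day 67 libraries, and P32 against the mean of both groups in regions called in all 5. An H3K27me3-only region was counted in the latter only if its merged region held no other day 67 region. The background of 11659 regions was not limited in this way. Only the main edgeR fits were tried on simulated data, which held no shift between replicate numbers. DESeq2 and the replicate block were not tried in this way. Other work used Python 3.11.15 with numpy 2.4.6, pandas 2.3.3 and scipy 1.17.1. Chromosome length is the highest island end, over 35 chromosomes.

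Replicate numbers were taken to pair the libraries, since inputs are labelled as pools of both groups for replicate 1 and for replicate 2. The correlation of deviations from the group mean between same-numbered libraries was r = 0.573 in the H3K27me3-only regions and 0.612 in all regions. Titles were followed where a deposited name carried another replicate number (Pol II replicate 1) or the other group's letter (H3K4me3 replicate 1), and neither affects which regions were chosen.

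Regions were named by a rule: the 5 highest in level, the 3 longest and the 3 just over the length limit, the 3 lowest p in each direction of each comparison where none passed, the 3 with the most P32 reads of each other mark, the 3 longest runs, and the 3 longest without a P32 H3K27me3 island. The regions, classes and lists were chosen with earlier results of these data known. Alternatives were DESeq2 1.42.0, size factors by RLE, a floor of 50 reads on average, uncalled libraries at 0 reads, a replicate block (P32 has no replicate number and was left its own level), covered length as an offset, the omission of each day 67 library, other overlaps, gaps and length limits, and equal numbers of islands.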

Additional observations from a re-analysis of the deposited data

How the results depend on the processing

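The number of H3K27me3-only regions was 2181 where each library had to cover at least 50% of a region, and other definitions gave 2791 to 5115. Leaving out a library gave 3880 to 4518. For Isolate against Tutored, 0 regions were called under every alternative run, the replicate block included. For P32 against day 67, DESeq2 called 25 and the replicate block 92. Another setting tested regions with an island in any 2 or more libraries, with an uncalled library at 0 reads although its level is unknown. It called 77 of 3358 H3K27me3-only regions lower and 0 higher in P32. Of all 23808 regions tested it called 328 lower and 0 higher, a smaller share. The rule gives each H3K27me3-only region an island in all 4 day 67 libraries, so among them only P32 could be set to 0. Leaving out each library gave 0 to 0. The cause of these differences was not tested. The share with a P32 H3K27me3 island was 63.5% at 50% cover, 76.2% with islands within 1000 bp merged, and 73.7% to 75.2% with a library left out of the definition (74.7% and 74.5% without Tutored replicates 1 and 2). With the same number of islands per library it was 88.9%, but of 2246 regions defined anew from the densest islands of each library. At 50% cover, the share with P32 H3K4me3 was 0.257%, with H3K9me3 9.21% and with Pol II 0%, and H3K9me3 was at 18.2% with equal numbers of islands. The day 67 level was 5.38 CPM per kb over reads in regions of all 4 libraries, 6.23 per covered kb, and 4.78 to 4.90 with a library left out. The density of small over large autosomes, 2.97-fold, was 2.61-fold with islands in at least 3 of 4 libraries and 1.40-fold per Mb of H3K27me3 regions, and middle over large, 2.24-fold, was 1.35-fold per Mb of H3K27me3 regions. With covered length as an offset, 8 of the 12 regions named for their p changed sign. The log2 fold of Isolate over Tutored became -0.046 on chromosome 1A, 0.012 on 6, 0.024 on 4A at 18439801 and 0.041 on 5. The log2 fold of P32 over day 67 became -0.28 on chromosome 17, -0.18 on 5, 0.42 on 3 and 0.10 on 10. By construction this offset removes differences in called length. Over 120 settings of these 12 regions, 101 kept direction and call and 11 passed the threshold where the value given above did not. Depth limits faint regions, since a region below the calling threshold has no count.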
